A study of Homo sapiens with 14 samples.

Results

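The IGF2-H19 and KCNQ1 imprinted domain lies on the short arm of chromosome 11, and the 1 Mb window chr11:1950000-2950000 (build hg19) was read for open chromatin in 14 ATAC-seq libraries. ATAC-seq marks open DNA through the insertion of sequencing adapters by the Tn5 transposase, and a peak is a stretch where insertions pile up above background. Every peak overlapping the window by 1 bp or more was taken, which gave 3028 peaks of the 1971391 in the 14 deposited lists. They merged into 467 separate regions, out of 410350 over the whole genome. The gene symbols H19, IGF2, KCNQ1, KCNQ1OT1 and CDKN1C give the window its name. No hg19 annotation was used here, so each peak is described by its hg19 position and none is assigned to a gene.

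The libraries form 7 groups of 2. LHCN cells are human myoblasts made immortal, and here they held vector alone or overexpressed PAX3-FOXO1 for 72 h. PAX3-FOXO1 is a fusion protein that binds DNA and drives alveolar rhabdomyosarcoma, the tumour from which the RH30 line was made, and RH30 expresses it without any transduction. RH30 cells received either 0.1% DMSO or 200 nM QC6352, which inhibits histone demethylases of the KDM4 family, over 72 h. In the hairpin experiment RH30 received shCtrl, a control, or shKDM4B-813 or shKDM4B-814, both aimed at the KDM4 family member KDM4B, again over 72 h. Each background is 1 cell line, and each library came from 100000 cells. Nothing in the labels says that replicates were separate cultures, so each spread and p-value below describes these libraries and may be technical. The labelled muscle origin could not be checked against marker genes without an hg19 annotation.

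The group of the 6 hairpin libraries is not certain. Each peak in a list carries a name with the library's treatment in it, and this name matched the sample label in 8 libraries. In the 2 libraries labelled shCtrl the peaks are named for shKDM4B-813, in the 2 labelled shKDM4B-813 they are named for shKDM4B-814, and in the 2 labelled shKDM4B-814 they are named for shCtrl. The hairpin libraries are therefore called by their labels throughout. Peak numbers and counts of calls are also given with the groups taken from the names in the lists. Named regions and most alternative settings follow the labels only.

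Genomic imprinting leaves the maternal and paternal copies of a gene differently active, according to DNA methylation set down in the germ line. In the first domain, a methylation-sensitive control region next to H19 steers shared enhancers towards IGF2, a fetal growth factor, on the paternal copy and towards H19, a noncoding RNA and the host of a microRNA, on the maternal copy. In the second domain, KCNQ1 encodes a voltage-gated potassium channel subunit, and KCNQ1OT1 is a long antisense RNA transcribed from a control region inside KCNQ1 on the paternal copy. KCNQ1OT1 keeps neighbours silent on its own copy, among them CDKN1C, which encodes the cyclin-dependent kinase inhibitor p57. Loss of alleles or of imprinting in this chromosome arm is known in rhabdomyosarcoma. A peak list does not separate the 2 parental copies, so the values below are sums over both.

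In the RefSeq order of genes, H19 and CDKN1C are the ends of a run of 29 genes, of which 12 encode proteins and 11 are long noncoding RNAs. H19 comes first, followed by its microRNA gene MIR675, then IGF2, INS, TH, ASCL2, CD81, TSSC4, TRPM5, KCNQ1, KCNQ1OT1 and CDKN1C. The RefSeq promoter table held H19 among the 5 genes, and its sequence is shown as the one regulatory sequence of the domain to hand. It runs from 250 bases before the H19 start to 50 after it, on the minus strand, at chr11:2001217-2001516 in build GRCh38.p14. That build differs from the one of the peaks, so the sequence is not placed against any peak. Its CpG dinucleotides, the sites where imprinted methylation is written, are in capitals.
H19 promoter: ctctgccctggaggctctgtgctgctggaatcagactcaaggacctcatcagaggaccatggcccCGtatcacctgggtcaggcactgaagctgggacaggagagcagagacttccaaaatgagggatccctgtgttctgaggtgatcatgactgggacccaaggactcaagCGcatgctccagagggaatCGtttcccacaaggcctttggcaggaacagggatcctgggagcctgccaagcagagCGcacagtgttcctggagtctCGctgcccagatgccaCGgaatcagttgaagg

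The H19 promoter holds 6 CpG dinucleotides, against a median of 14 over the 35116 promoters of the table, and 33.7% of promoters hold fewer. Its GC content is 57.7%, close to the median of 58.7%. The TATA motif TATAAA, the CCAAT motif, the E-box CAGCTG and the GC box GGGCGG were searched on both strands, and none of these letter strings is in the window. They occur in 11.5%, 34.6%, 17.9% and 45.0% of all promoters of that length. H19 also hosts a microRNA hairpin, and its mature arms follow from RefSeq with the seed, bases 2 to 8, in capitals.
hsa-miR-675-5p: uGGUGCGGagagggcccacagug
hsa-miR-675-3p: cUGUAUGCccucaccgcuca

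The RH30 libraries had more peaks in the window than the LHCN libraries, and the 2 labelled shCtrl had the most. In the deposited lists the vector libraries of LHCN held 91 and 96 window peaks and the PAX3-FOXO1 libraries 113 and 99. In RH30 the DMSO libraries held 118 and 177, the QC6352 libraries 158 and 444, those labelled shCtrl 489 and 511, those labelled shKDM4B-813 153 and 314, and those labelled shKDM4B-814 138 and 127. The lists themselves were of unequal length, from 93488 to 176899 peaks, so each was trimmed to its 93488 strongest peaks by the authors' −log10 q, then fold, then position. After trimming, the window held 53 and 51 peaks with vector, 52 and 56 with PAX3-FOXO1, 98 and 102 in the DMSO lists and 126 and 144 in the QC6352 lists. It held 316 and 360 peaks in the libraries labelled shCtrl, 69 and 160 in those labelled shKDM4B-813, and 111 and 127 in those labelled shKDM4B-814. Ties at the trimmed length were broken by position, which places chromosome 11 early and so raised the window count in some lists. In the first QC6352 list 20.6% of the 9512 tied peaks were kept over the genome and 22 of 22 in the window. With ties in random order the counts were 108 and 139 with QC6352, 98 and 100 with DMSO, 321 and 333 in the libraries labelled shCtrl and 60 and 138 in those labelled shKDM4B-813. The other 3 groups moved by at most 2 peaks a library. With lists trimmed to 93488 peaks, replicates thus lay close to each other in 6 of the 7 groups, and those labelled shKDM4B-813 differed by more than a factor of 2. In the deposited lists the QC6352 libraries also lay far apart, at 158 and 444, and the DMSO libraries held 118 and 177.

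**Figure D1:**
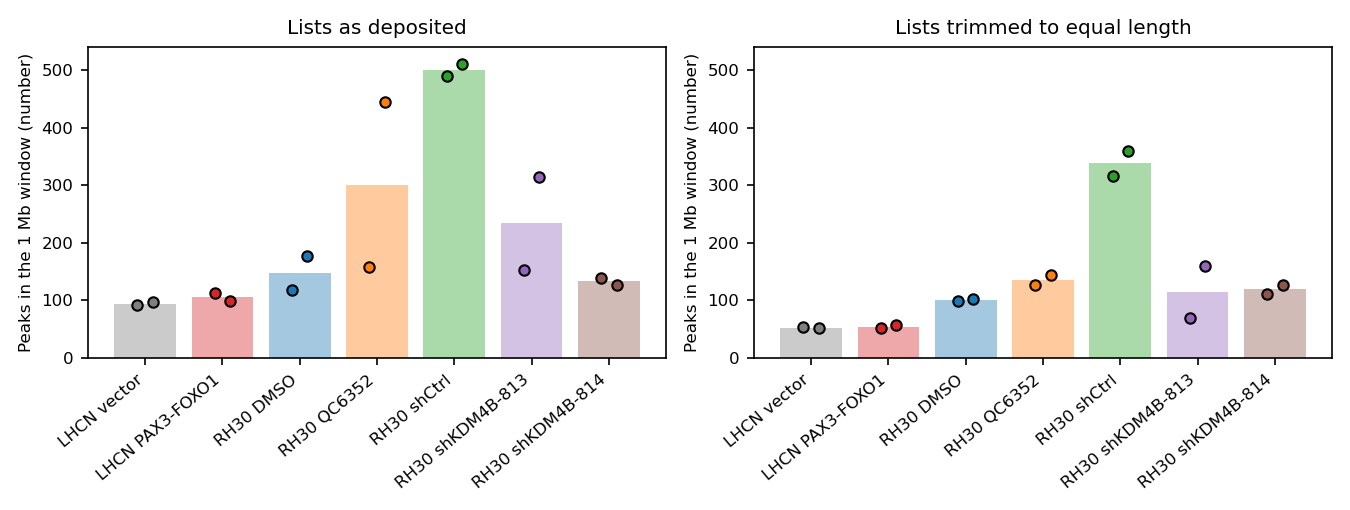
Number of peaks in the 1 Mb window (y axis) for the 7 groups (x axis), with the lists as deposited on the left and trimmed to the 93488 strongest peaks on the right; each point is 1 library and each bar the mean of 2. The 4 LHCN libraries lie between 51 and 56 after trimming, below all 10 RH30 libraries, and the 2 labelled shCtrl lie at 316 and 360.

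The dense peaks of RH30 were not limited to the window. In the 1 Mb left of it, trimmed lists held 33 to 39 peaks in LHCN and 57 to 326 in RH30, and the 1 Mb right of it held 49 to 53 and 45 to 109. On the right the libraries labelled shCtrl held 86 and 109, and the other RH30 libraries 45 to 58, close to LHCN. Among 2912 windows of 1 Mb the domain ranked 302 to 537 by peak number in LHCN and 10 to 140 in RH30. Chromosome 19, which is rich in genes, took 5.39% and 5.48% of the trimmed peaks in the libraries labelled shCtrl, 4.04% and 3.93% with QC6352, and 2.25% to 3.00% in the other 6 RH30 libraries and 2.27% to 2.65% in LHCN. Peak number in the window, in its left neighbour and on chromosome 19 was thus highest in the same 2 libraries, and the part of these wider differences in the window counts was not tested.

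Window peaks had a larger median width than the whole list in every library but the first with QC6352, where it was 296.5 against 315 bp. The median strength of a window peak was lower in most RH30 libraries than in LHCN. Median widths in the window were 345.5 to 381 bp in LHCN and 296.5 to 452 bp in RH30, and the medians of whole lists were 306 to 309 bp and 307 to 348 bp. The narrowest peak measured 200 bp in all 14 libraries, and the widest 2945 to 3451 bp in LHCN and 1948 to 7125 bp in RH30. The 7125 bp peak was in the second library labelled shCtrl, inside chr11:1999962-2007250. Strength was read as a within-list percentile, where 100 is the strongest peak of a list. The median window peak of a deposited list lay at percentile 40.5 to 55.6 in LHCN and 19.4 to 49.8 in RH30, and the strongest at 95.6 to 98.2 and 93.3 to 99.9. Many weak peaks tie in −log10 q and fold, and in the libraries labelled shCtrl the median window peak was tied with 9870 and 10328 peaks (itself included), so the percentile of a weak peak is coarse.

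A minority of the regions recurred in all libraries. Of the 467 merged regions, 33 had a peak in all 14 deposited lists, 87 in both lines, 372 in RH30 alone and 8 in LHCN alone. One library alone held 127 of the 467, and 85 of these came from the 2 libraries labelled shCtrl. RH30 has 10 libraries and LHCN 4, which by itself favours regions in RH30 alone. No genome-wide share is given for the counts by line, so they do not set the window apart. With trimmed lists merged over the genome, 7.30% of the 370 window regions had a peak in all 14 libraries and 42.4% in 1 library, against 9.68% and 30.4% of regions genome-wide. The 7.30% includes regions that the first library labelled shKDM4B-813 held only through ties kept by position.

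**Figure D2:**
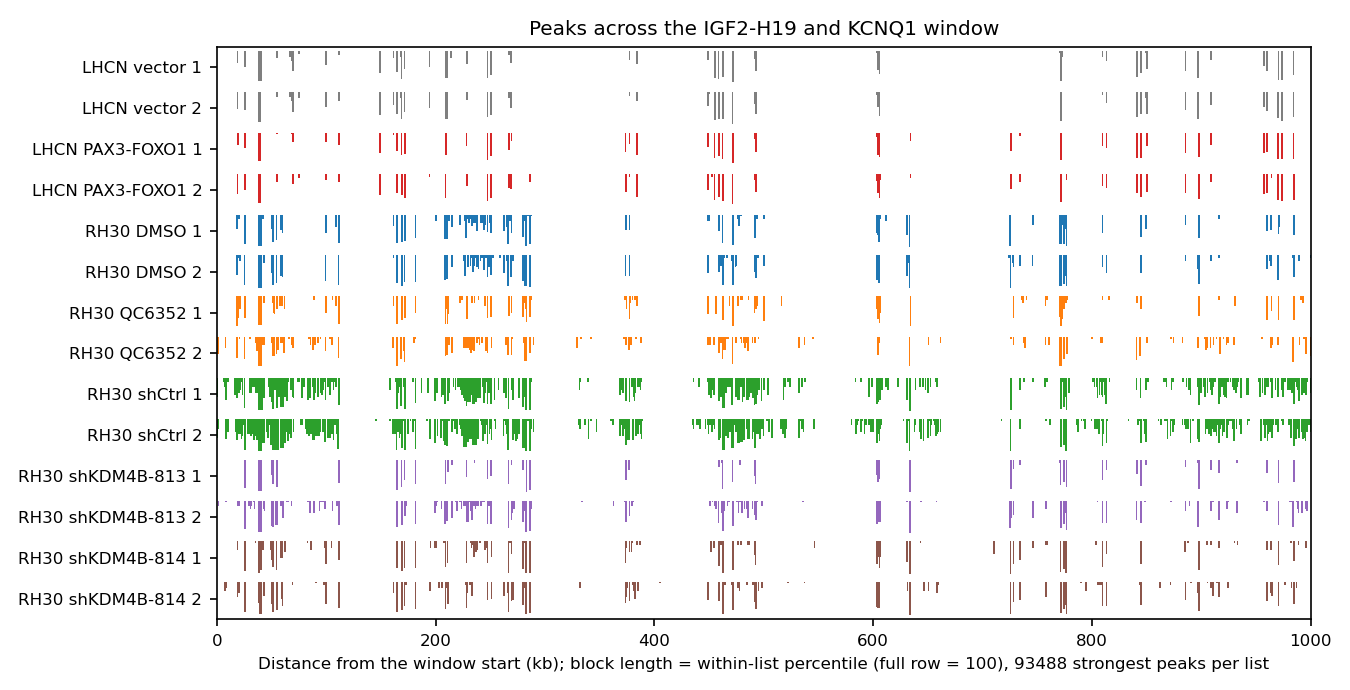
Peaks of the 14 libraries (rows) across the window, by distance from its start in kb (x axis); each block is 1 peak of the trimmed lists and its length down the row is the within-list percentile. The same few strong positions recur in most rows, the libraries labelled shCtrl add dense weaker peaks, and the sixth stretch of 100 kb is empty in all 4 LHCN rows.

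Along the window, in 10 bins of 100 kb, the lines did not overlap in the first, the third and the eighth with trimmed lists. With deposited lists they overlapped in each of these, at 13 to 21 in LHCN and 13 to 69 in RH30, 13 to 27 and 24 to 67, and 3 to 10 and 8 to 39. The share of such bins over the genome was not computed. In chr11:2150001-2250000 the trimmed lists held 6 to 7 peaks in LHCN and 16 to 50 in RH30. In chr11:2650001-2750000 they held 1 to 5 in LHCN and 7 to 18 in RH30. In chr11:2450001-2550000 no LHCN library had a peak and RH30 libraries had 0 to 26, with both DMSO libraries and the first labelled shKDM4B-813 also at 0. The last bin, chr11:2850001-2950000, held 6 to 7 in LHCN and 6 to 62 in RH30, which overlap at the low end. The first bin, chr11:1950001-2050000, held 7 to 9 in LHCN and 10 to 56 in RH30. The 10 belong to the first library labelled shKDM4B-813 and include peaks tied at the trimmed length and kept by position, so this gap depends on the order of ties.

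Of all regions, 5 had the highest median percentile over the 14 libraries, and only 2 of these were strong in both lines. The region chr11:1987665-1995532 had a peak in every library, at percentile 86.7 to 92.9 in LHCN (median 91.3) and 87.5 to 98.9 in RH30 (median 97.4). Its lowest RH30 values, 88.9 and 87.5, were those of the QC6352 libraries. The authors' fold over background there ran from 11.9 to 63.8, and the main peak was 1589 to 4265 bp wide. The region chr11:2420471-2423147 was at percentile 91.9 to 96.7 in LHCN and 68.4 to 92.4 in RH30, with deposited ranks from 3092 in the second vector library to 29501 in the first library labelled shKDM4B-813. Its LHCN and RH30 ranges meet at 91.9 and 92.4, so they overlap.

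The strongest peak of the window in the 8 RH30 libraries without QC6352 was absent from the vector libraries of LHCN. The region chr11:2582451-2584005 ranked 291 and 341 in the DMSO lists, 193 and 140 in those labelled shCtrl, 599 and 784 in those labelled shKDM4B-813, and 220 and 167 in those labelled shKDM4B-814. With QC6352 it ranked 8068 and 10579, behind the best window peaks of those lists at 7405 and 9572. In LHCN it had no peak in either vector list and ranked 69745 and 80544 with PAX3-FOXO1. The 8 RH30 libraries without QC6352 thus placed it among their 784 strongest peaks, the QC6352 libraries lower, and the PAX3-FOXO1 libraries of LHCN far lower still. The authors' fold was 65.1 and 55.8 with DMSO, 13.8 and 12.3 with QC6352, and 9.56 and 10.6 with PAX3-FOXO1 in LHCN. Its main peak measured 1479 and 1535 bp with DMSO, 631 and 1176 bp with QC6352 and 477 and 430 bp with PAX3-FOXO1 in LHCN.

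The pair chr11:2228993-2233259 and chr11:2235255-2236488 was strong in RH30 and weak in LHCN. The former was in all 14 deposited lists, with ranks 108631 to 152526 in LHCN and 2307 to 23867 in RH30, where the QC6352 libraries gave the weakest, 18915 and 23867. The latter had no peak with vector and ranked 100446 and 71008 with PAX3-FOXO1. In RH30 it ranked 8145 and 4205 with DMSO, 34796 and 48626 with QC6352, 2282 and 831 in the libraries labelled shCtrl, 6955 and 6073 in those labelled shKDM4B-813, and 3636 and 6202 in those labelled shKDM4B-814. In both regions every RH30 library outranked every LHCN library. Both were named by the median over the 14 libraries, which favours regions strong in RH30.

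**Figure D3:**
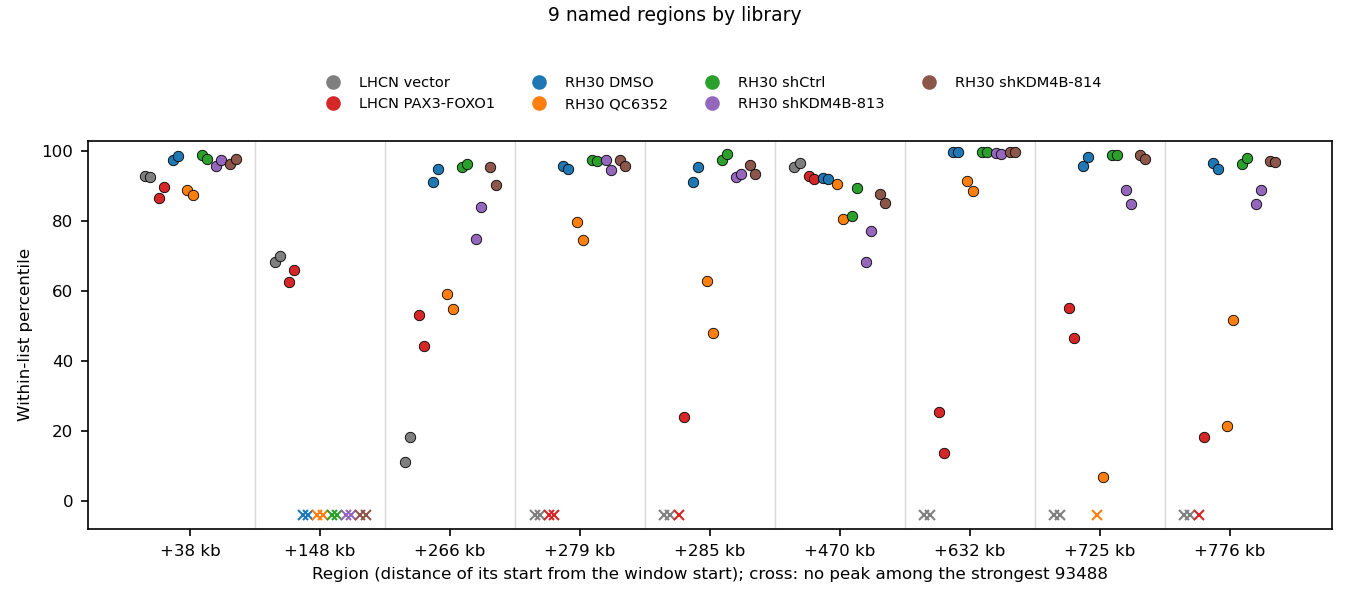
Within-list percentile (y axis, trimmed lists) of 9 named regions (x axis, distance of the region's start from the window start) in the 14 libraries, coloured by labelled group; a cross marks a library with no peak among its 93488 strongest. The region at +632 kb lies at 88.7 to 99.9 in all RH30 libraries, at 13.8 and 25.4 with PAX3-FOXO1 in LHCN and is absent with vector.

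The comparison of lines asked how RH30 controls differ from LHCN with vector. The 4 RH30 controls, DMSO and those labelled shCtrl, held 219 ± 139 window peaks (SD, n = 4) and the vector libraries 52 ± 1.41 (SD, n = 2). The groups did not overlap, and the difference of 167 had p = 0.133 in a two-sided exact permutation test, where 0.0667 is the smallest this design allows. With the DMSO libraries as the only controls the difference was 48 (100 ± 2.83 against 52 ± 1.41), and with the control libraries taken from the names in the lists it was 57.5 (exact permutation p = 0.0667). The value thus rests on the 2 libraries labelled shCtrl. Over all libraries, the 10 of RH30 held 161.3 ± 97.0 peaks (SD) and the 4 of LHCN 53 ± 2.16 (SD). The difference of 108.3 came without overlap and with a two-sided exact permutation p of 0.0509. Without the first or the second library labelled shCtrl it was 91.1 or 86.2, with exact permutation p = 0.0392 or 0.0224.

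The order of the lines turned when only strong peaks were counted. With −log10 q of 10 or more the window held 66 to 81 peaks in LHCN and 37 to 126 in RH30, and the mean of RH30 was 7.15 lower. The whole lists were also unequal under this limit, at 123409 to 139986 peaks in LHCN and 43219 to 77239 in RH30. Per 10000 such peaks the window held 4.89 to 5.79 in LHCN and 5.96 to 26.1 in RH30, with no overlap.

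By presence, a region was called gained where all libraries of the first group and none of the second had a peak, and lost in the reverse case. RH30 controls against vector gained 20 of 362 window regions (5.52%), against 6.69% over all regions of the genome, and lost 1 (0.276%), against 18.2%. The share gained was near the background, and the share lost far under it. The 1 lost region, chr11:2098325-2098997, had peaks at ranks 29640 and 28057 with vector and 35056 and 31675 with PAX3-FOXO1. None of the 10 deposited RH30 lists had a peak there. The lost count was 4 without the first library labelled shCtrl, 2 without the second and 2 without the second vector library. With DMSO alone as control 31 of 125 were gained (24.8%, genome 16.7%) and 13 were lost (10.4%, genome 23.8%). With control libraries by the names in the lists, 20 of 199 were gained (10.1%, genome 8.98%) and 9 lost (4.52%, genome 18.2%).

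The gained regions with the strongest peaks were the region chr11:2582451-2584005 described above, chr11:2674680-2676179 and chr11:2228993-2233253. At chr11:2674680-2676179 the DMSO libraries ranked 3902 and 1670 and those labelled shCtrl 920 and 1111. One vector library had a weak peak there at rank 152528, outside the trimmed list, and the other had none. The PAX3-FOXO1 libraries of LHCN ranked 41838 and 49924, between vector and the 4 RH30 controls.

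Among 30 shared regions, those with a peak in every library compared, 14 ranked higher in each RH30 control than in each vector library (46.7%, genome 33.8%) and 4 lower (13.3%, genome 28.4%). With DMSO alone as control the counts were 17 higher (50%, genome 40%) and 9 lower (26.5%, genome 37.8%) of 34, and with control libraries by the names in the lists 15 higher (46.9%, genome 32.9%) and 7 lower (21.9%, genome 30.3%) of 32. At chr11:2215563-2217445 the percentile was 11.1 and 18.2 with vector, against 91.3 and 95 with DMSO and 95.5 and 96.2 in the libraries labelled shCtrl. The PAX3-FOXO1 libraries of LHCN stood between, at 53.1 and 44.4. At chr11:1999962-2007250 vector was at 22.2 and 16.4 and the 4 RH30 controls at 84.8 to 96.4, and at chr11:2059845-2060963 vector was at 13.1 and 29.1 and the controls at 81.6 to 93.0. The 4 lower regions were chr11:2407839-2411216, chr11:2919357-2920654, chr11:2420471-2423147 and chr11:2156974-2161391, the last named after its values were seen. At chr11:2407839-2411216 vector was at 85.8 and 83.0 and the controls at 50.5 to 69.4.

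Under the strictest rule, 4 of 370 regions had a peak in all 10 trimmed RH30 lists and in no LHCN list (1.08%, genome 1.73%), and 1 had the reverse (0.270%, genome 5.66%). The 4 were chr11:2007755-2012960, chr11:2130765-2131277, chr11:2228993-2233259 and chr11:2723827-2725549, named after their values were seen. The first of these met the rule through rank 93138 in the first library labelled shKDM4B-813. That peak was among ties at the trimmed length, of which 18.6% were kept over the genome and all in the window. At chr11:2130765-2131277 no deposited LHCN list had a peak either, and RH30 ranks ran from 7765 in the second library labelled shCtrl to 86924 in the second QC6352 library. It was the 1 region of this kind in the deposited lists. The other 3 had weaker LHCN peaks beyond the trimmed length: chr11:2007755-2012960 in all 4 LHCN lists, with vector ranks 99466 and 94508, chr11:2228993-2233259 also in all 4, and chr11:2723827-2725549 in both fusion lists. Of 27 regions with a peak in all 14 trimmed lists, 6 ranked higher in every RH30 library (22.2%, genome 13.8%) and 1 lower (3.70%, genome 13.1%). The 27 include chr11:1966604-1971469 and chr11:2045840-2050074, which the first library labelled shKDM4B-813 held only through such ties, at ranks 93135 and 93139.

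With PAX3-FOXO1 in LHCN, the shares of window regions gained, higher and lower were near those of the whole genome, and the share lost was under it. Lists were trimmed to 170390 peaks, which left 106 and 99 window peaks with the fusion and 87 and 96 with vector. The means were 102.5 ± 4.95 and 91.5 ± 6.36 (SD, n = 2), a difference of 11 without overlap. The two-sided exact permutation p was 0.333, the smallest that 2 against 2 libraries allow. Of 126 regions, 10 were gained (7.94%, genome 8.13%) and 6 lost (4.76%, genome 8.44%), and of 61 shared regions 16 ranked higher (26.2%, genome 28.7%) and 25 lower (41.0%, genome 38.7%). With 1 library left in a group each rule is easier to meet, and the gained count was 24 without the second fusion library. The lost count was 13 without the first vector library, 10 without the second and 11 without the second fusion library, and the count of higher regions was 26 without the first vector library.

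The gained regions with the strongest peaks were chr11:2583297-2583783, chr11:2683609-2683936 and chr11:2235703-2236110. At chr11:2583297-2583783, inside the region chr11:2582451-2584005 of RH30, the fusion libraries were at percentile 59.1 and 52.7 of their own trimmed lists and vector had no peak. At chr11:2683609-2683936 the fusion libraries were at 50.7 and 59.3, and in RH30 1 of 2 deposited DMSO lists had a peak, at rank 64371. At chr11:2235703-2236110 the fusion libraries were at 41.0 and 58.3, with peaks of 408 and 366 bp, and both DMSO lists had one.

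Regions gained with the fusion often had a peak in RH30 with DMSO. Of the 10, 6 had one in both trimmed DMSO lists (60%), against 21.7% of all 19045 gained regions, and of the 6 lost regions none had, against 3.1%. Among shared regions, with a peak in all 4 LHCN libraries, the shares were 63.9% in the window and 43% genome-wide, so the window as a whole stood above the genome in this measure. The 6 gained regions were chr11:2001150-2001365, chr11:2235703-2236110, chr11:2583297-2583783, chr11:2723987-2724260, chr11:2726182-2726779 and chr11:2865302-2865820.

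Shared regions moved with the fusion at several levels of strength. At chr11:2410365-2411080 the fusion libraries were at percentile 43.2 and 32.3 and vector at 0.674 and 1.56, so both vector peaks were among the weakest of their lists. At chr11:2402017-2402565 the values were 41.0 and 50.2 against 29.6 and 3.77. At chr11:2333362-2333919, a stronger peak, they were 81.6 and 84.7 against 67.4 and 61.1, and neither DMSO library of RH30 had a peak there.

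Among the regions that ranked lower with the fusion, chr11:2008204-2008876 was at 14.5 and 4.36 against 41.6 and 44.5 with vector. At chr11:2720367-2720759 the fusion libraries were at 10.4 and 9.86 and vector at 48.8 and 32.0. At chr11:2798623-2798916 the values were 6.62 and 38.9 against 48.8 and 56.0, with the fusion libraries far apart. The lost regions with the strongest vector peaks were weak throughout: chr11:2144446-2144839 was at 14 and 32 with vector, chr11:2058149-2058422 at 21.2 and 6.77 and chr11:2400743-2401041 at 21.2 and 3.77.

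With QC6352, strong peaks in the window ranked lower than with DMSO, while the number of peaks was higher. Lists trimmed to 105136 peaks held 145 and 190 window peaks for QC6352 and 118 and 122 for the DMSO control, or 167.5 ± 31.8 and 120 ± 2.83 (SD, n = 2). The difference of 47.5 came without overlap and with p = 0.333 (two-sided exact permutation test). With −log10 q of 10 or more the order turned, with 37 and 47 peaks against 55 and 55, a mean 13 lower. The lists with QC6352 also held a larger share of peaks on chromosome 19, as given above, and the part of this in the window count was not tested.

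Few window regions came or went with QC6352. Of 254 regions, 11 were gained (4.33%, genome 6.5%) and 8 lost (3.15%, genome 7.28%). Without the first QC6352 library the gained count was 102, without the second 42 and without the second DMSO library 17. The lost count was 27 without the first DMSO library, 13 without the second and 17 without the second QC6352 library. At chr11:2010409-2012547 QC6352 was at percentile 45.3 and 53.8, and the second DMSO library had a deposited peak at rank 119516, outside its trimmed list. The gained regions chr11:2706914-2707716 and chr11:2879204-2880239 were both at 38.4 and 33.8 with QC6352, and neither deposited DMSO list had a peak there. Of the lost regions, chr11:2580450-2581345, a neighbour of chr11:2582451-2584005, was at 66.5 and 66.6 with DMSO. The other 2 with the strongest DMSO peaks were chr11:2211968-2212692, at 56.4 and 58.2, and chr11:2695052-2695512, at 38.6 and 38.8.

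Among 52 shared regions, 28 ranked lower in both QC6352 libraries than in both DMSO libraries (53.8%), against 28.7% genome-wide, and 2 ranked higher (3.85%), against 23.4%. The median change of the mean percentile was −11.6 in the window and −1.23 over all shared regions. Without the first QC6352 library the count of lower regions was 44, and the count of higher regions was 6 to 11 with any 1 of the 4 libraries left out. The largest fall was at chr11:2725765-2727162, from 97.1 and 95.5 with DMSO to 30.1 and 57.1 with QC6352. At chr11:2130768-2131277 the values were 76.2 and 82.7 in the DMSO lists and 55.9 and 17.3 in the QC6352 lists. At chr11:2552515-2552981 the DMSO libraries were at 61.9 and 71.7 and the QC6352 libraries at 45.3 and 6.79.

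Regions chosen as strong with DMSO mostly ranked lower with QC6352, and choosing by the DMSO values itself favours a fall. In the window 9 regions were at percentile 90 or above in both DMSO libraries, and 8 of these ranked lower with QC6352 (88.9%), against 52% of the 8708 such regions in the genome. The ninth, chr11:2674680-2676179, had no peak in the first QC6352 list and ranked 86936 in the second, so it was not shared. Over the 8 the median change was −18.9, against −3.46 over all strong shared regions. Genome-wide, 9.69% of the strong regions ranked higher, against 23.4% of all shared regions. The 8 include chr11:2582462-2583996, whose mean percentile was 99.7 with DMSO and 91.1 with QC6352, chr11:1987665-1991419, at 98.1 and 89.5, and chr11:2235426-2236488, at 94.1 and 60.3. Both higher regions lay near the ends of the window. At chr11:1967093-1969577 QC6352 was at 93.0 and 67.3 and DMSO at 49.3 and 63.6, and at chr11:2933307-2935148 QC6352 was at 76.8 and 79.8 and DMSO at 67.8 and 69.3.

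**Figure D4:**
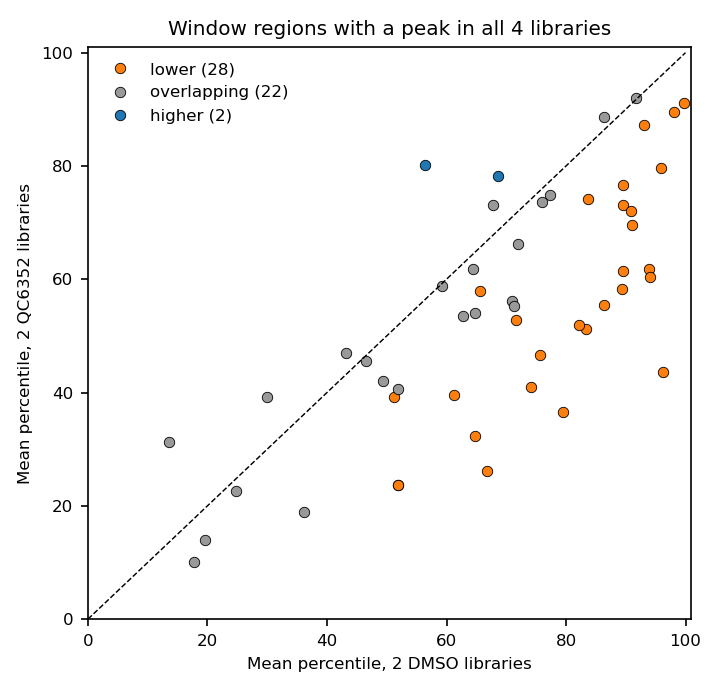
Mean within-list percentile of the 52 shared window regions with DMSO (x axis) and QC6352 (y axis), means of 2 libraries each, with the line of equal values; colours mark the 28 regions lower in both QC6352 libraries, the 2 higher and the 22 that overlap. All 8 shared regions at 90 or above in both DMSO libraries are among those lower, a choice by DMSO values that itself favours a fall.

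For the hairpins the labels decide the direction of the window. By the labels, shKDM4B-813 libraries held 69 and 160 peaks, shKDM4B-814 libraries 111 and 127 and shCtrl libraries 316 and 360, so both hairpins lay below the control without overlap. The differences were −223.5 (114.5 ± 64.3 against 338 ± 31.1, SD, n = 2) and −219 (119 ± 11.3 against 338), each with a two-sided exact permutation p of 0.333. By the names in the lists, shKDM4B-813 is the group with 316 and 360 peaks and the control the one with 111 and 127, a difference of +219, and shKDM4B-814 differed from that control by −4.5 with overlap (exact permutation p = 1). With the DMSO libraries as control, those labelled shKDM4B-813 differed by +14.5 with overlap and those labelled shKDM4B-814 by +19. The 2 comparisons share their control libraries, so their values are not independent.

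By the labels, shKDM4B-813 lost 85 of 365 window regions (23.3%, genome 7.98%) and gained 1 (0.274%, genome 12.4%). Of 46 shared regions 32 ranked lower (69.6%, genome 33%) and 1 higher (2.17%, genome 25.2%). Labelled shKDM4B-814 lost 90 of 369 (24.4%, genome 6.78%) and gained 2 (0.542%, genome 6.73%), and of 50 shared regions 25 ranked lower (50%, genome 25.6%) and 5 higher (10%, genome 23.5%). The lost count of shKDM4B-813 was 135 without its second library, 189 without the first library labelled shCtrl and 138 without the second. Its count of lower regions was 81 without its first library, and its gained and higher counts were 3 to 6 and 2 to 5 with any 1 library left out. For labelled shKDM4B-814 the lost counts without the first and the second library labelled shCtrl were 193 and 142, and the counts of lower regions without its own first and second were 48 and 49. Its gained and higher counts were 3 to 8 and 8 to 13 with any 1 library left out.

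By the names in the lists the direction for shKDM4B-813 reversed, and shared regions of shKDM4B-814 were still more often lower than higher. shKDM4B-813 then gained 90 of 369 regions (24.4%, genome 6.78%) and lost 2 (0.542%, genome 6.73%), with 25 of 50 shared regions higher (50%, genome 25.6%) and 5 lower (10%, genome 23.5%). shKDM4B-814 by these names gained 4 of 167 (2.40%, genome 6.12%) and lost 3 (1.80%, genome 3.3%), and of 47 shared regions 2 were higher (4.26%, genome 23.6%) and 22 lower (46.8%, genome 28%). With the DMSO libraries as control, labelled shKDM4B-813 gained 2 of 134 (1.49%, genome 8.05%) and lost 6 (4.48%, genome 6.6%), with 4 of 43 shared regions higher (9.30%, genome 25.3%) and 17 lower (39.5%, genome 39.4%). Labelled shKDM4B-814 against DMSO gained 6 of 134 (4.48%, genome 3.2%) and lost 3 (2.24%, genome 5.4%), with 12 of 44 higher (27.3%, genome 23.7%) and 5 lower (11.4%, genome 30.5%).

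**Figure D5:**
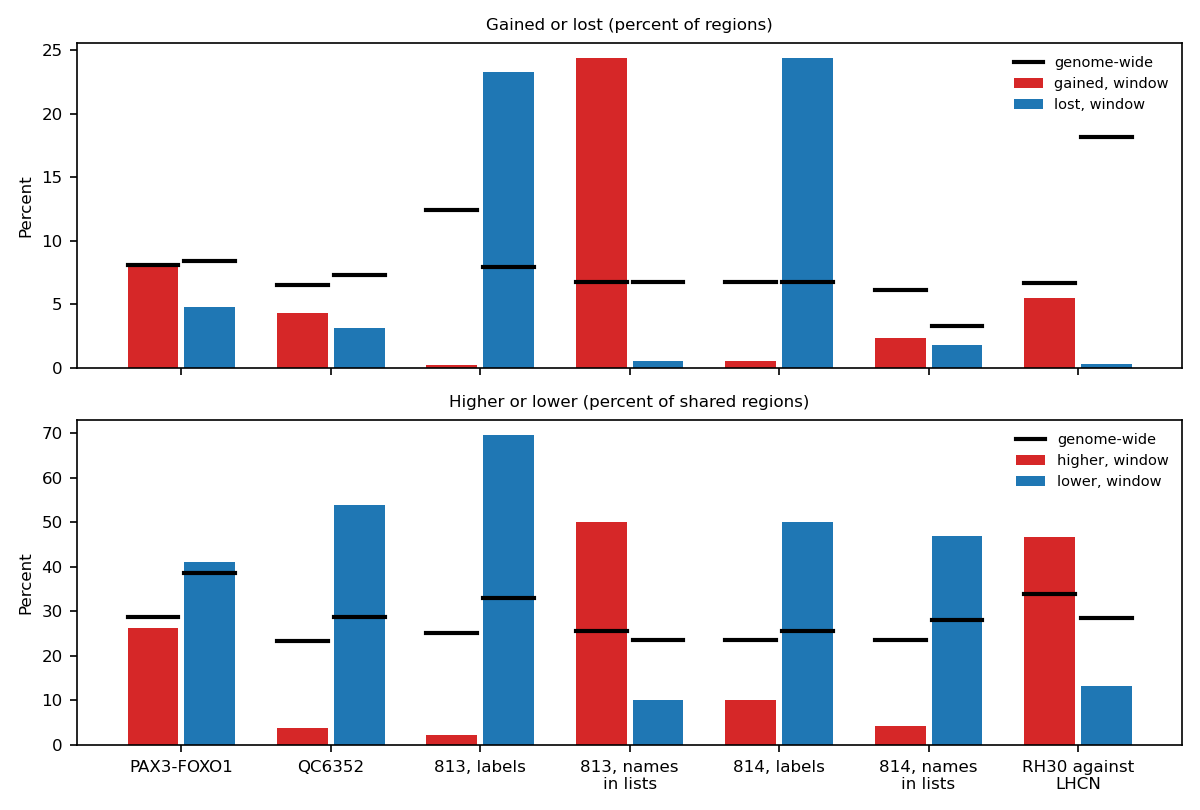
Percent of window regions gained or lost (upper panel) and of shared regions higher or lower (lower panel) in each comparison, as bars, with black lines for the percent over the whole genome; hairpin comparisons are shown with groups by labels and by the names in the lists. The shKDM4B-813 bars swap from 23.3% lost to 24.4% gained between the groupings, and 53.8% of shared regions were lower with QC6352 against 28.7% genome-wide.

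Regions with the strongest peaks among those lost lay in the middle of the lists labelled shCtrl. Lost under the labels were chr11:2438890-2439299, at percentile 62.6 and 62.0 in the libraries labelled shCtrl and with no deposited peak in either labelled shKDM4B-814, and chr11:2872410-2873191, at 62.6 and 58.0. The region chr11:1947697-1951275, across the window's left end, was at 58.2 and 78.6. For labelled shKDM4B-813 the lost regions with the strongest peaks were chr11:2913845-2914706, at 62.6 and 58.0 in the libraries labelled shCtrl, and chr11:1997784-1998873 and chr11:2866864-2870024, both at 58.2 and 53.2.

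Shared regions moved the same way as the presence calls. At chr11:2007833-2012960 the libraries labelled shCtrl were at 89.5 and 90.1, with peaks of 3068 and 3355 bp, and those labelled shKDM4B-813 at 0.375 and 52.5, with peaks of 583 and 333 bp. At chr11:1967609-1971469 the values were 62.6 and 65.5 in the libraries labelled shCtrl against 0.378 and 15.9, and at chr11:2045840-2050074 they were 66.4 and 71.1 against 0.374 and 25.3. The 3 low values belong to the first library labelled shKDM4B-813, at ranks 93138, 93135 and 93139 of 93488, among 9607 peaks tied at the trimmed length. Of these ties 18.6% were kept over the genome and 11 of 11 in the window, so the order of chromosomes set these 3 values and whether the peaks counted as present. With tied peaks in random order and at their mean rank, the differences of mean percentile were −64.0, −56.3 and −56.6, and 28 of 43 shared regions were lower. For labelled shKDM4B-814 the largest falls were at chr11:2433631-2437477, at 66.3 and 62.0 against 12.1 and 8.70, at chr11:2425698-2428420, at 66.3 and 73.3 against 12.1 and 25.2, and at chr11:2865278-2865985, at 78.4 and 73.3 against 19.5 and 46.4.

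A few regions went against this pattern. At chr11:2677446-2677742 neither deposited list labelled shCtrl had a peak, those labelled shKDM4B-813 were at 28.1 and 44.1 and those labelled shKDM4B-814 at 69.0 and 61.7. At chr11:2919392-2920654 the libraries labelled shCtrl were at 58.2 and 40.2, those labelled shKDM4B-813 at 71.2 and 74.2 and those labelled shKDM4B-814 at 72.0 and 72.9. The second region gained in the libraries labelled shKDM4B-814, chr11:2683203-2683444, was at 19.5 and 33.3. The other 4 regions higher in the libraries labelled shKDM4B-814 were chr11:2683623-2683969, chr11:2554932-2557513, chr11:2846224-2848345 and chr11:2411368-2414812, the last 2 named after their values were seen. At chr11:2411368-2414812, the strongest of these, the values were 96.1 and 96.2 against 93.2 and 95.6.

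At chr11:2582451-2584005 the 6 hairpin libraries lay at percentile 99.2 to 99.9. The libraries labelled shKDM4B-813 gave the lowest of the 6 there, as they did at chr11:2674680-2676179, with ranks 10402 and 14223 against 920 to 2107 in the other 4. At chr11:2725765-2727162 the libraries labelled shKDM4B-813 ranked 14184 and 10260 and the other 4 ranked 1935 to 3330. These 3 regions did not overlap between the libraries labelled shKDM4B-813 and the other 4 hairpin libraries. They were put together after their values were seen, and how many other regions split this way was not counted. By the names in the lists, the 2 low libraries are those of shKDM4B-814.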

How the data were processed

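ATAC-seq was done on 14 libraries of LHCN and RH30 cells. The submitters' processing notes name build hg19 and list MACS2 2.1.1, a peak caller, beside SAMtools 1.3.1, Picard 1.65 and BWA 0.7.12-r1039. Their settings, and whether reads were shifted for Tn5, are not stated there. The deposited lists hold peaks called per library. The authors' fold per peak, a ratio over background, and the authors' −log10 q ranked the peaks within a list. The authors' score and −log10 p were deposited but not used. Read depth is unknown, and a deposited list holds only peaks above a limit (lowest −log10 q 2.00 to 2.60).

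Lists were trimmed to the shortest of the libraries compared (170390 peaks in LHCN, 105136 in the compound and 93488 in the hairpin experiment and across lines) and merged where peaks overlapped by 1 bp. Presence and rank calls ran over the genome. They were also run on simulated lists with untied scores, a single peak of fixed width per region and no trimming. That check does not cover ties, wide merged regions or the trimmed length. Peak numbers were compared by exact permutation over libraries. Python 3.11.15, numpy 2.4.6, pandas 2.3.3 and matplotlib 3.10.9 were used.

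The rule for named regions took the 5 with the highest median percentile over the 14 libraries. Per comparison it took up to 3 gained and 3 lost regions with the highest value of the weaker library, and up to 3 shared regions each way with the largest difference of mean percentile. Window, rules and lists were chosen with earlier results of these data known. The planned marker check and gene positions were not run, since no hg19 annotation was used here. Alternatives were the lists as deposited, −log10 q of 10 or more, 50% coverage, replicate blocks, each library left out and DMSO as hairpin control. The names in the lists, DMSO alone as RH30 control and random order of ties were added after seeing the data.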

Additional observations from a re-analysis of the deposited data

How the results depend on the processing

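With lists as deposited, QC6352 gained 21, lost 5 and had 5 higher, labelled shKDM4B-813 gained 3 and had 67 lower, labelled shKDM4B-814 lost 175 with 1 higher and 46 lower, RH30 controls lost 4, and all RH30 against all LHCN differed by 163.15 peaks (exact permutation p = 0.0430). With −log10 q of 10 or more, the fusion had 9 higher. QC6352 had −13 peaks, 0 gained and 13 lower. Labelled shKDM4B-813 gained 2, lost 16 and had 3 higher and 13 lower, and labelled shKDM4B-814 lost 21 with 3 higher and 14 lower. RH30 controls gained 11, lost 14 and had 6 higher and 13 lower, and all RH30 against all LHCN differed by −7.15 peaks (exact permutation p = 0.687). With a peak required to cover 50% of its region, the fusion gained 16, QC6352 gained 5 with 0 higher and 8 lower, labelled shKDM4B-813 had 0 higher and 14 lower, labelled shKDM4B-814 had 1 higher and 4 lower, and RH30 controls gained 12 and lost 2 with 0 higher and 2 lower. With DMSO as control, labelled shKDM4B-813 had 14.5 more peaks, 2 gained, 6 lost, 4 higher and 17 lower, and labelled shKDM4B-814 had 19 more peaks, 6 gained, 3 lost, 12 higher and 5 lower. By the names in the lists, shKDM4B-813 had 219 more peaks, 90 gained, 2 lost, 25 higher and 5 lower, and shKDM4B-814 gained 4, lost 3 and had 2 higher. RH30 controls taken as DMSO alone gained 31, lost 13 and had 9 lower, and taken by the names in the lists lost 9 and had 7 lower. For the deposited lists, the −log10 q limit and the 50% coverage, region numbers and genome-wide shares are not given. A changed count there is therefore not by itself a change particular to the window. The cause of the moves under all these settings was not tested.

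Leaving out 1 library at a time, the fusion had 6.5 to 15.5 more peaks, 12 to 24 gained, 9 to 13 lost, 21 to 26 higher and 28 to 33 lower. QC6352 had 25 to 70 more peaks, 16 to 102 gained, 12 to 27 lost, 6 to 11 higher and 34 to 44 lower. Labelled shKDM4B-813 had −269 to −178 peaks, 3 to 6 gained, 88 to 189 lost, 2 to 5 higher and 36 to 81 lower. Labelled shKDM4B-814 had −241 to −197 peaks, 3 to 8 gained, 110 to 193 lost, 8 to 13 higher and 29 to 49 lower. RH30 controls had 120 to 207.333 more peaks, 20 to 27 gained, 1 to 4 lost, 14 to 18 higher and 4 to 6 lower, and all RH30 differed from all LHCN by 86.2 to 118.6. The counts with a library left out, here and above, come without genome-wide shares. Each rule is also easier to meet with fewer libraries, so these counts are not set against the full ones. With the replicate block, the peak differences were 11, 47.5, −223.5 and −219, each with an exact permutation p of 0.5 from sign flips within pairs. That is the smallest p that 2 pairs allow, so this test cannot decide whether the groups differ. The deviations of same-numbered libraries gave no sign of pairing, so the numbers are only shared. With tied peaks in random order all 26 of these results kept their direction, with counts within 1.5 times. Read depth is unknown, so an absent peak is one not called at an unknown depth.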
